A study of Mus musculus with 9 samples.

Results

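The genes described here encode the proteins of the cytosolic ribosome, as measured in mouse blood after polytrauma (PT) alone and after polytrauma with hemorrhagic shock (PT + HS). They were chosen by symbol, as every gene named Rps or Rpl with a number and at most one further letter, together with the stalk genes Rplp0, Rplp1 and Rplp2 and the laminin receptor gene Rpsa. Mitochondrial ribosomal proteins and symbols with a pseudogene ending were left out. Of 18194 genes with a probe set of their own, 46 met this rule, 22 of the small and 24 of the large subunit. Each gene was represented by its probe set with the highest mean.

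Blood of 9 C57BL/6 mice was hybridised, 3 in each of the groups Ctrl, PT and PT + HS, with 1 array per mouse. The mice were 8 to 9 weeks old and weighed 25 g on average. Ctrl mice were bled by cardiac puncture as soon as they were anesthetised and carried neither injury nor catheters. PT mice received an injury of the brain, a closed femoral fracture with soft tissue damage and a blunt trauma to both sides of the chest, and their blood was drawn 4 h later. PT + HS mice had the same injuries, were bled from 1 h after trauma, held at an arterial pressure of 30 mmHg on average for 60 min, and were resuscitated over 30 min with 4 times the shed volume of electrolyte solution. They also received norepinephrine to hold the blood pressure afterwards, so that bleeding, fluid and catecholamine cannot be told apart in this group. The injured groups therefore also differed from Ctrl in hours of sevoflurane anesthesia, in analgesia and in catheters, and these cannot be told apart from the trauma. The tubes lysed whole blood, so that red cell precursors and platelets contributed RNA beside the leukocytes. In such bulk samples fewer cells of a type and less RNA per cell cannot be told apart. Values are the deposited log2 signals, and differences are given on that log2 scale, where 0.585 is a change of 1.5-fold.

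Ribosomal proteins clothe the ribosomal RNA and are needed in near equal numbers, one copy per ribosome for most of them. Their messenger RNAs are long-lived, are among the most abundant in any cell, and most begin with a C followed by an unbroken run of pyrimidines, the 5′ terminal oligopyrimidine (TOP) tract. Through this tract the kinase mTOR and the binding protein Larp1 control how much of the messenger is translated, so that growth and stress can change ribosome production without a change of messenger level. In blood the messengers are rich in lymphocytes and in young red cells, and poor in mature neutrophils. Inherited loss of one copy of several of these genes causes Diamond-Blackfan anemia, a failure of red cell production.

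The promoters of the genes were searched for this tract around the annotated start of transcription. RefSeq windows on build GRCm38.p6 were at hand for 40 of the 46 genes, with 48 windows in all, since some genes have several starts. A C followed by at least 4 bases that are each C or T began within 10 bases of the start, or ran across it, in 26 of 48 windows (54.2%), against 29.2% of all 32851 mouse promoter windows. The motif CCGGAAG, the core of GABP sites, lay on either strand within 250 bases before and 50 bases after the start in 41.7% of the windows of these genes and in 8.86% of all windows. GCCATNTT, the YY1 motif, was in 12.5% against 6.05%, GGGCGG, the Sp1 box, in 24 of the 48 windows against 35.7% of all, and TATAAA in 10.4% against 13.6%. The reverse strand of CCGGAAG can itself supply a short tract, and neighbouring GGGCGG and CCGGAAG can share end bases. A match is a string of letters and not a shown binding site. The following windows hold 40 bases before the start and 20 bases from it on, with the tract in capitals, for genes to which the measurements below return. They show a long tract (Rpl27a), tracts that span or open at the start (Rps6, Rps24, Rpl38) and windows in which no tract met the definition (Rps25, Rpl11).
Rpl27a, chr7:109519155-109519214, plus strand: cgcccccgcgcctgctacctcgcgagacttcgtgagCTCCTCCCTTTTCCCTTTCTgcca
Rps6, chr4:86857348-86857407, minus strand: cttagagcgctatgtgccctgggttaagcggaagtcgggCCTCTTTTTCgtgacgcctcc
Rps24, chr14:24490638-24490697, plus strand: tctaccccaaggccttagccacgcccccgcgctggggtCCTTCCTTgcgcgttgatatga
Rpl38, chr11:114668540-114668599, plus strand: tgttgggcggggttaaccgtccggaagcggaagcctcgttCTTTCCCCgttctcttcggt
Rps25, chr9:44407674-44407733, plus strand: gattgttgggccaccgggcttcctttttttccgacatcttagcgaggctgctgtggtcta
Rpl11, chr4:136053374-136053433, minus strand: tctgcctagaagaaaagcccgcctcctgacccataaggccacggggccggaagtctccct
In the Rpl27a window the tract was 20 bases long and began 4 bases before the annotated start. In Rpl38 it was 8 bases long and began at the first transcribed base. In Rps25 a run of C and T lies upstream of the annotated start, and in Rpl11 the CCGGAAG motif is within the bases shown.

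Most of the genes were among the brightest on the arrays. The mean over the 9 arrays was 9 or more for 34 of the 46, all of them in the top 5% of genes, where the median gene had 4.29 and the 95th percentile was 8.27. The brightest was Rps29, a small-subunit protein, with 13.15, 13.20 and 13.19 in Ctrl, 13.13, 13.16 and 13.23 in PT and 13.24, 13.07 and 12.95 in PT + HS. The next was Rpl41, the smallest ribosomal protein, with a mean of 12.78. Levels of different probe sets depend on their probes, so that this order is one of signal and not of molecules.

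A group of 9 genes stood below 5, near the level of silent genes. Of these, 3 are paralogs: Rpl39l (mean 2.76), known from testis, Rpl3l (3.32), known from heart and skeletal muscle, and Rps4l (3.76), which RefSeq lists as a transcribed pseudogene. The other 6, Rpl12, Rpl14, Rpl37, Rpl39, Rps16 and Rps27, are general ribosomal proteins. For each of these 6 another probe set, which the annotation assigns to the gene and to further symbols, mostly pseudogene copies, was bright, with means from 10.31 for Rpl14 to 12.87 for Rpl39. Rps16 had 4.21 in its own probe set and 12.79 in the shared one. The same held for Rps6, the target of S6 kinase, with 6.28 and 12.47, and for Rps25, with 6.36 and 10.90. The dim values of these 8 genes thus describe their probe sets and not the abundance of the messengers. Rps27l, a paralog of Rps27 known as a p53 target, had a mean of 7.40.

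**Figure D1:**
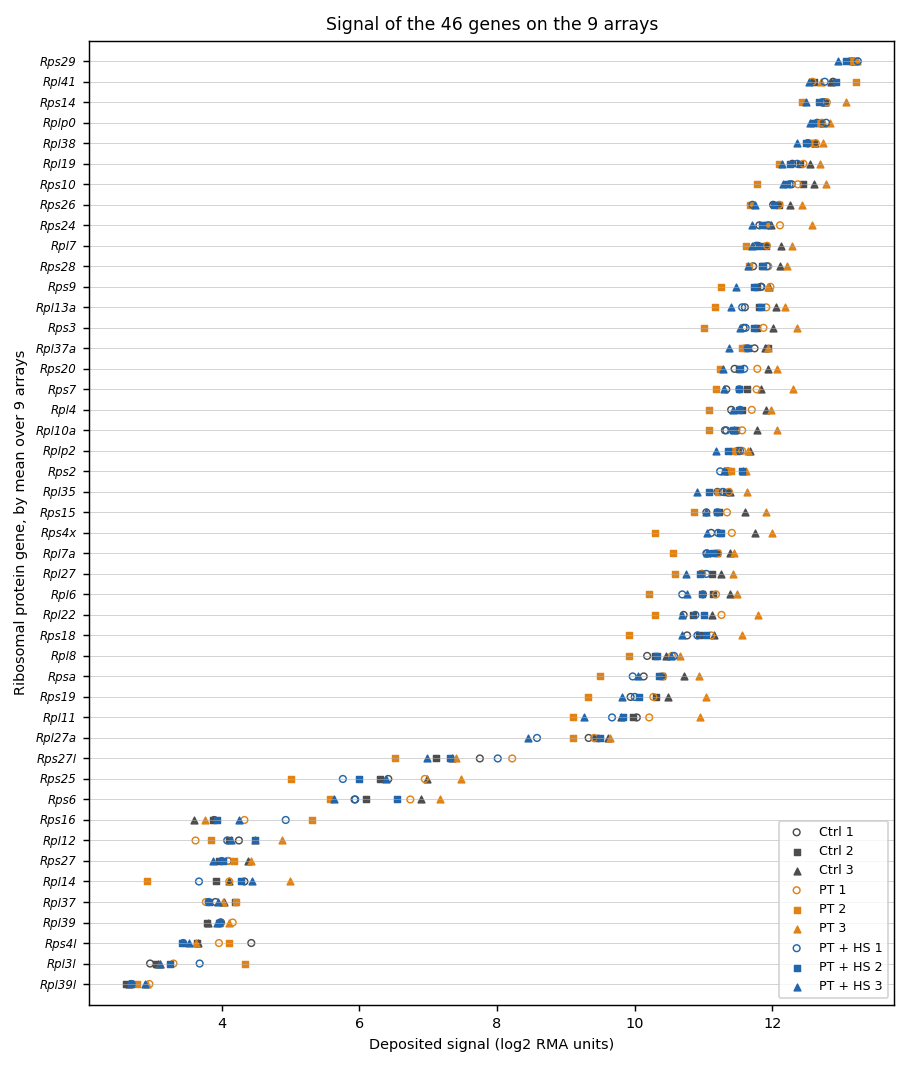
Deposited log2 signal (horizontal axis) of the 46 ribosomal protein genes (rows, ordered by mean) on the 9 arrays, with colour for the group and marker shape for the replicate. The 34 genes with a mean of 9 or more lie together on the right, and within most rows PT 3 is at the right end and PT 2 at the left.

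The genes moved together from mouse to mouse, most of all within the PT group. As the median over the 46 genes of the difference from the Ctrl mean, the Ctrl arrays stood at -0.13, -0.02 and 0.14, the PT arrays at 0.05, -0.41 and 0.31, and the PT + HS arrays at -0.10, -0.10 and -0.26. PT 2 was thus the lowest and PT 3 the highest of the 9 arrays, and both lay in the same group. PT 3 was the highest of all 9 arrays in 34 of the 46 genes, against 14.8% of all genes, and PT 2 the lowest in 27, against 23.2% of all genes. The median difference between PT 3 and PT 2 was 0.75 over the 46 genes and -0.05 over all genes, and 5 of the 46 went the other way. The median SD within the group was 0.416 in PT, 0.167 in Ctrl and 0.149 in PT + HS, where all genes had 0.306, 0.222 and 0.208.

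**Figure D2:**
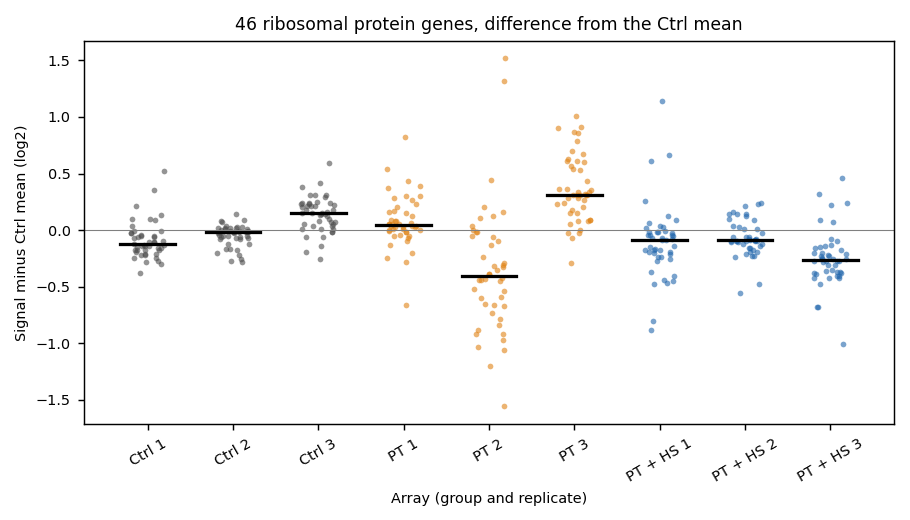
Log2 signal minus the Ctrl mean of the same gene (vertical axis) for each of the 46 genes (points) on the 9 arrays, with the median of each array as a bar. The medians of the PT arrays lie at 0.05, -0.41 and 0.31 and so span more than those of the other 6 arrays.

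Rps25, of the small-subunit head, had the widest spread over the 9 arrays, with an SD of 0.73. It measured 6.42, 6.30 and 6.98 in Ctrl, 6.95, 5.00 and 7.47 in PT and 5.76, 6.00 and 6.38 in PT + HS. Its lowest and its highest value were both in PT. Rpl11, which can bind and block Mdm2 when it is not built into ribosomes, measured 10.03, 9.98 and 9.80 in Ctrl, 10.21, 9.10 and 10.95 in PT and 9.67, 9.83 and 9.26 in PT + HS. Again PT 2 was the lowest and PT 3 the highest array. The narrowest spread was that of Rps29 (SD 0.09) and of Rplp0, the stalk protein often used as a reference gene (SD 0.10). Rplp0 measured 12.65, 12.68 and 12.74 in Ctrl, 12.72, 12.63 and 12.84 in PT and 12.78, 12.59 and 12.54 in PT + HS, so that the 3 groups overlapped.

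The arrays PT 2 and PT 3 also differed over the whole array and in their cell markers. The SD over all probe sets was 1.59 on PT 2 and 1.8 on PT 3, with 1.71 to 1.78 on the others, and the 95th percentile of the signal was 7.21 on PT 2 and 7.91 on PT 3, with 7.66 to 7.85 on the others. After a repeated quantile normalization, which gives every array the same distribution, the medians of the ribosomal protein genes were 0.03, -0.26 and 0.23 in PT, so that the order of the arrays was the same. T cell markers (20 of 25 measured) had median differences from the Ctrl mean of -0.44, -0.13 and 0.62 in Ctrl, 0.06, -0.73 and 1.17 in PT and -0.26, 0.35 and -0.22 in PT + HS. Their summed signal lay between 11.60 and 12.49 in Ctrl, 11.16 and 13.32 in PT and 11.85 and 12.45 in PT + HS on the log2 scale. B cell markers (20 of 22) were also lowest on PT 2 within the PT group, with -1.39, -2.54 and -0.46. Neutrophil markers (15 of 17) had 1.86, 0.40 and 1.43 in PT, and red cell precursor markers (16 of 20) had -0.05, 0.56 and -0.14. The part of these array and cell differences in the values of the ribosomal protein genes was not tested.

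Other genes of protein synthesis followed the same arrays. The 32 measured translation factors had medians of 0.07, -0.78 and 0.33 on the PT arrays, 57 genes of ribosome biogenesis 0.02, -0.42 and 0.26, and 76 mitochondrial ribosomal proteins 0.09, -0.45 and 0.24. In each list PT 2 was the lowest and PT 3 the highest array of the PT group. Over the 9 arrays, 22 of the 46 genes (47.8%) had a Pearson correlation above 0.9 with the mean of the 46 centred genes, to which each contributed, against 1.42% of the other genes. The other genes most like that mean were Dhx36 (0.985), a helicase, Cox16 (0.981), Fkbp3 (0.980), Timm21 (0.979), Eef1b2 (0.976), a subunit of the elongation factor that reloads Eef1a1, Mrpl45 (0.974), Immp1l (0.969), H2az2 (0.968), Srsf11 (0.966) and Rpap2 (0.964). These correlations are descriptions over 9 arrays that share the PT 2 and PT 3 contrast. Of the bright genes, Rps29 (0.451) and Rpl41 (-0.368) did not follow the mean. Rpl41 measured 12.88, 12.61 and 12.85 in Ctrl, 12.58, 13.22 and 12.71 in PT and 12.76, 12.92 and 12.53 in PT + HS, and so was highest on PT 2, where most of the others were lowest.

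**Figure D3:**
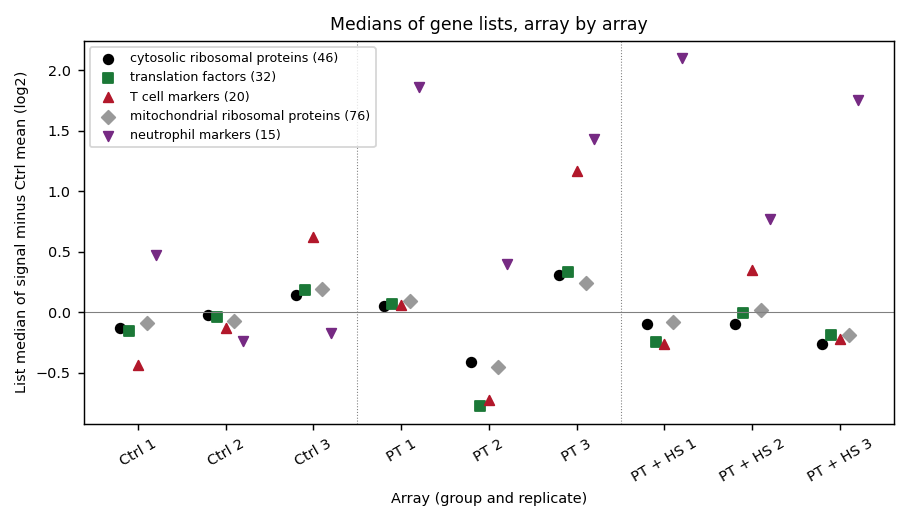
Median over each gene list of the log2 signal minus the Ctrl mean (vertical axis) on the 9 arrays, for the cytosolic ribosomal proteins and 4 other lists with the number of genes measured. On PT 2 the ribosomal proteins (-0.41), translation factors (-0.78) and T cell markers (-0.73) are all low, and on PT 3 all high. Neutrophil markers are above 0 in every injured mouse, but also on Ctrl 1 (0.47), which lies above PT 2 (0.40).

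The first comparison asked what polytrauma did to the messengers within 4 h. No ribosomal protein gene passed the study's thresholds (at least 1.5-fold, with an unadjusted p under 0.05) between PT and Ctrl, where 3.67% of all genes did, 1.41% as higher and 2.26% as lower. None had an adjusted p under 0.05 in limma, the smallest being 0.953. None had an unadjusted p under 0.05 in limma, where 5.82% of all genes did. The methods' t-test gave 1 gene with an unadjusted p under 0.05, and the share of all genes for that count is not at hand. In that t-test none of the 46 genes passed the study's thresholds, where 1.61% of all genes did. Of the 46 genes 22 were above and 24 below 0, where 49.9% and 50.1% of all genes were, with a median of -0.0043, against -0.00025 for all genes. The 95% interval of the difference lay wholly within a change of 1.5-fold in 20 of the 46 (43.5%) and in 31.6% of all genes, and for the other 26 a change of that size was within the interval. A near-zero median was not what each mouse showed, since it was 0.19 with 40 genes above 0 without PT 2 and -0.15 with 39 below 0 without PT 3. Without PT 2 the 3 genes Rpl11 (0.64, SE 0.25), Rpl22 (0.63, SE 0.22) and Rps25 (0.64, SE 0.27) passed the study's thresholds as higher, with unadjusted p of 0.0287, 0.0157 and 0.0402, where 4.22% of all genes passed as higher in the same fit. Their adjusted p in limma were 0.467, 0.386 and 0.518. Without PT 3 it was 2 other, dim genes, Rps16 (1.03, SE 0.35, unadjusted p = 0.0153, adjusted p = 0.363 in limma) and Rpl3l (0.80, SE 0.30, unadjusted p = 0.0264, adjusted p = 0.406 in limma), where 2.73% of all genes passed as higher.

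All values of PT lay above all of Ctrl in 2 genes, where 4.32% of all genes did so, and below them in none, where 5.12% of all genes did so. Both were dim paralogs. Rpl3l measured 2.96, 3.04 and 3.07 in Ctrl and 3.30, 4.34 and 3.10 in PT, and Rpl39l measured 2.69, 2.61 and 2.66 in Ctrl and 2.95, 2.77 and 2.92 in PT. PT 2 was the high array for Rpl3l, and for Rpl39l the whole range of the 6 arrays was small. The difference was 0.56 (SE 0.30, adjusted p = 0.953 in limma) for Rpl3l and 0.22 (SE 0.15, adjusted p = 0.98 in limma) for Rpl39l.

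The second comparison set polytrauma with shock against Ctrl. Here 39 of the 46 genes were below 0 and 7 above, where 52.6% and 47.4% of all genes were. The median was -0.16, against -0.014 for all genes. In the same comparison 15 of 20 B cell markers passed the study's thresholds as lower (median -1.43) and 10 of 15 neutrophil markers as higher (median 1.51), while none of 20 T cell markers passed (median -0.02). In PT against Ctrl, where the median of the 46 genes was -0.0043, 18 of 20 B cell markers passed as lower (median -1.52). There 8 of 15 neutrophil markers passed as higher (median 1.23) and none of 20 T cell markers passed (median 0.13). The part of these cell markers in the shift of the ribosomal protein genes was not tested. In PT + HS against Ctrl 33 of the 34 bright genes were below 0, Rpl8 being the exception (0.16, SE 0.21). The median was -0.049 without Ctrl 3, with 30 genes below 0, -0.10 without shock mouse 3, with 36 below 0, and -0.080 after the repeated quantile normalization. The 95% interval lay within a change of 1.5-fold in 14 of the 46 genes (30.4%) and in 32.8% of all genes.

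Rpl27a, a large-subunit protein, was the one gene past the study's thresholds, where 1.29% of all genes passed them as lower, 1.99% as higher and 3.28% in either direction. No ribosomal protein gene had an adjusted p under 0.05 in limma, where 0.0055% of all genes, 1 gene, did. It measured 9.33, 9.44 and 9.61 in Ctrl, 9.41, 9.11 and 9.64 in PT and 8.58, 9.50 and 8.45 in PT + HS. Shock mice 1 and 3 were below every other mouse, while shock mouse 2 lay within the range of Ctrl, so that the groups overlapped. The difference from Ctrl was -0.62 (SE 0.27, unadjusted p = 0.0486, adjusted p = 0.999 in limma), and it was -0.95 (SE 0.21, unadjusted p = 0.0017, adjusted p = 0.364 in limma) without shock mouse 2. Without any 1 of the 3 Ctrl arrays, PT 1, or shock mouse 1 or 3, Rpl27a no longer passed, with differences from -0.42 to -0.68. It did not pass either with the methods' t-test, with equal array medians, among genes above the median level or with the replicate block, where the difference was still -0.62, nor with its probe sets averaged (-0.30). A brighter probe set assigned to Rpl27a and pseudogene symbols measured 11.40, 11.51 and 11.66 in Ctrl and 11.50, 11.45 and 11.30 in PT + HS. There the difference was -0.11, with the groups overlapping, so that the fall was seen in the weaker probe set. Rpl27, a Diamond-Blackfan anemia gene that is a different protein despite its name, also differed by probe set, with -0.20 and -0.21 in the brighter pair and -1.01 (unadjusted p = 0.0186 in limma over probe sets) in the weakest. That weakest Rpl27 probe set measured 8.80, 8.82 and 8.95 in Ctrl, 8.57, 7.83 and 8.77 in PT and 7.94, 8.55 and 7.07 in PT + HS. Shock mice 1 and 3 were again below shock mouse 2.

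All PT + HS values lay below all Ctrl values in 6 genes, where 6.68% of all genes did so, namely Rpl6, Rpl37a, Rpl38, Rps4l, Rps10 and Rps14, and above them in 2, where 6.55% of all genes did so, the dim Rpl3l and Rps16. Rpl38, which is known for its part in selective translation of Hox messengers, measured 12.52, 12.60 and 12.62 in Ctrl, 12.63, 12.53 and 12.73 in PT and 12.51, 12.49 and 12.36 in PT + HS. The groups were barely apart, and the difference was -0.13 (SE 0.15, 95% interval -0.45 to 0.20). Rps14, known for its loss in the 5q- syndrome, measured 12.75, 12.76 and 12.77 in Ctrl and 12.72, 12.68 and 12.49 in PT + HS, with a difference of -0.13 (SE 0.19). For both genes the interval left no room for a change of 1.5-fold. A second bright probe set of Rps14 measured 12.11, 12.02 and 12.31 in Ctrl and 12.24, 12.01 and 11.84 in PT + HS. The groups overlapped there, as they did in a further bright probe set each of Rpl37a and Rps10. Rps16 measured 3.89, 3.88 and 3.60 in Ctrl, 4.33, 5.31 and 3.76 in PT and 4.93, 3.93 and 4.25 in PT + HS, while its shared bright probe set differed by -0.01 in PT and -0.08 in PT + HS. The higher values of Rps16 were therefore those of a dim probe set.

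**Figure D4:**
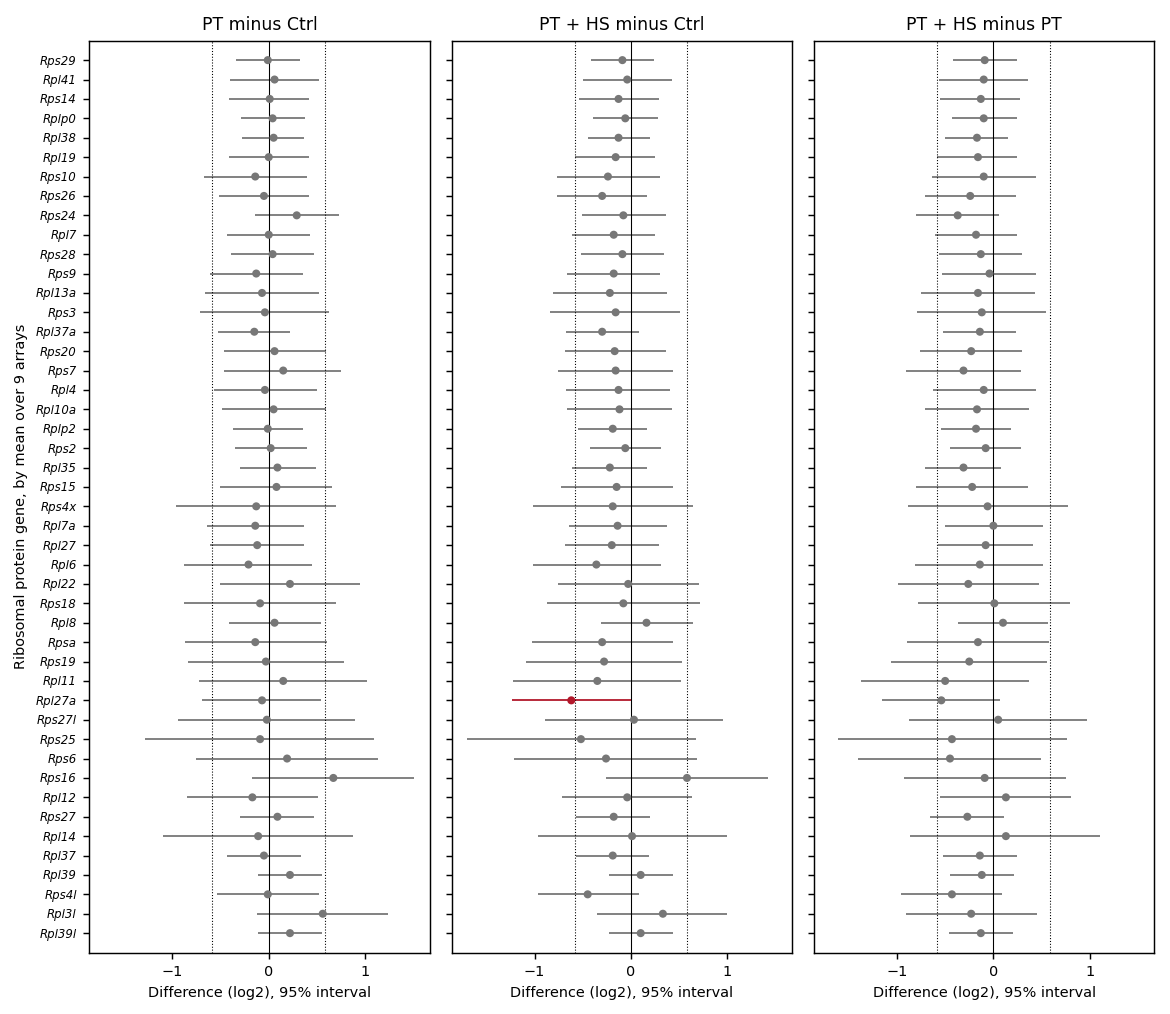
Log2 difference (points) with its 95% interval from limma (lines) for the 46 genes, ordered by mean signal, in the 3 comparisons; dotted lines mark a change of 1.5-fold. Rpl27a (red) in PT + HS minus Ctrl is the one gene past the study's thresholds, at -0.62, and most points of the panels for PT + HS lie left of 0.

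The third comparison asked what shock added to polytrauma. In PT + HS against PT 40 of the 46 genes were below 0 and 6 above, where 50.7% and 49.3% of all genes were, with a median of -0.14 against -0.0031 for all genes. None passed the study's thresholds, where 1.12% of all genes did, and none had an unadjusted p under 0.05 in limma, where 2.87% of all genes did. The methods' t-test gave 1 gene with an unadjusted p under 0.05, again without a share of all genes at hand. In that t-test none of the 46 genes passed the study's thresholds, where 0.418% of all genes did. The 95% interval lay within a change of 1.5-fold in 17 of the 46 genes (37.0%) and in 33.0% of all genes. In the same comparison 17 of 20 T cell markers (median -0.14) and 11 of 16 red cell precursor markers (-0.05) were below 0. All measured monocyte (11, median 0.6), platelet (13, 0.28) and NK cell markers (10, 0.33) were above 0. So were 12 of 15 neutrophil markers (0.44) and 11 of 20 B cell markers (0.07). The part of these cell markers in the difference of the ribosomal protein genes was not tested. For the 46 genes the outcome depended on which PT mice were compared. Without PT 3 the median was -0.0032, with 23 genes above and 23 below 0. Without PT 2 it was -0.34, with 43 genes below 0, and 7 genes passed the study's thresholds as lower, where 3.31% of all genes did so in that fit against 0.396% with all arrays. These were Rps25 (-1.16, SE 0.27), Rpl11 (-1, SE 0.25), Rps6 (-0.91, SE 0.34), Rps19 (-0.69, SE 0.25), Rpl27a (-0.68, SE 0.29), Rpl22 (-0.67, SE 0.22) and Rps7 (-0.59, SE 0.22). Their unadjusted p ran from 0.00168 for Rps25 to 0.0399 for Rpl27a, and no adjusted p in limma was below 0.548. Without shock mouse 2, Rpl27a alone passed (-0.87, SE 0.21, unadjusted p = 0.00279, adjusted p = 1 in limma), where 0.52% of all genes passed as lower.

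Of the 7 genes, Rps19 is the one most often affected in Diamond-Blackfan anemia and Rpl22 is needed for the development of most T cells. Rps19 measured 9.94, 10.31 and 10.48 in Ctrl, 10.27, 9.32 and 11.03 in PT and between 9.82 and 10.06 in PT + HS. Rpl22 measured 10.71, 10.84 and 11.12 in Ctrl, 11.26, 10.29 and 11.79 in PT and 10.88, 11.01 and 10.69 in PT + HS. In both genes PT 2 was below all 3 shock mice, and PT 1 and PT 3 were above them. Rps6 measured 5.93, 6.09 and 6.90 in Ctrl, 6.74, 5.58 and 7.17 in PT and 5.94, 6.55 and 5.63 in PT + HS. Its shared bright probe set measured 12.50, 11.89 and 12.96 in PT and 12.42, 12.47 and 12.33 in PT + HS. With all arrays, PT 2 included, PT + HS differed from PT by -0.45 in its own probe set and by -0.05 in the shared one. For Rps25, also read from a dim probe set, these differences were -0.43 and 0.04. The shared bright probe set of Rps25 measured 11.17, 9.56 and 11.82 in PT and 10.94, 11.12 and 10.62 in PT + HS.

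All PT + HS values lay below all PT values in 3 genes, Rpl38, Rps27 and Rps4l, where 3.56% of all genes did so, and above them in none, where 3.61% of all genes did so. Rps27 was read from a dim probe set (mean 4.11). In its shared bright probe set the groups overlapped, with 11.77, 10.70 and 12.32 in PT and 11.62, 11.53 and 11.27 in PT + HS. For Rpl38 the difference was -0.17 (SE 0.15, 95% interval -0.50 to 0.15). Rps4l, a dim paralog, measured 4.43, 3.64 and 3.65 in Ctrl, 3.96, 4.11 and 3.62 in PT and 3.44, 3.43 and 3.52 in PT + HS. Its differences were -0.43 (SE 0.24) from PT and -0.45 (SE 0.24) from Ctrl, with unadjusted p of 0.0957 and 0.0886 and adjusted p of 1 and 0.999 in limma.

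Among genes grouped by role, the 11 measured Diamond-Blackfan anemia genes of 18 listed ran from -0.14 to 0.29 in PT against Ctrl. In PT + HS all 11 were below 0 against Ctrl, from -0.35 to -0.08, and against PT, from -0.50 to -0.08. Of all 46 genes 39 were below 0 against Ctrl and 40 against PT, so that this was not particular to the anemia genes. The stalk proteins Rplp0 and Rplp2 differed by no more than 0.19 in any comparison. Rps2, Rps3, Rps14 and Rps15, which lie around the messenger channel and the decoding site, ran from -0.04 to 0.08 in PT and from -0.16 to -0.06 in PT + HS against Ctrl. Rpsa, which also serves as a laminin receptor, had -0.14 (SE 0.33) and -0.30 (SE 0.33). None of these genes passed the study's thresholds.

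Several genes had more than one bright probe set, which gave a second reading of the same messenger in the same mice. In all, 23 of the 46 genes had several probe sets, and 63 of the 100 probe sets of the 46 genes had a mean of 9 or more. Of these 63, 61 were below 0 in PT + HS against Ctrl, 59 in PT + HS against PT and 26 in PT against Ctrl. Probe sets of 1 gene share their mice and often their probes, and 30 of the 46 genes were read from a probe set whose name ending marks probes that may match other transcripts. Rps24, a Diamond-Blackfan anemia gene, had 4 bright probe sets. The one used measured 11.81, 11.94 and 11.98 in Ctrl, 12.11, 11.91 and 12.58 in PT and 11.94, 11.85 and 11.70 in PT + HS. The next in brightness measured 11.59, 11.62 and 11.82 in Ctrl, 12.04, 11.49 and 12.57 in PT and 11.53, 11.57 and 11.14 in PT + HS. In both, PT 3 was the highest and shock mouse 3 the lowest array. The 4 ran from 0.29 to 0.45 in PT against Ctrl and from -0.62 to -0.32 in PT + HS against PT. In PT + HS against PT the 4 differences of -0.62, -0.58, -0.37 (the probe set used) and -0.32 had unadjusted p of 0.0378, 0.0314, 0.0761 and 0.162 in limma over probe sets. Rpl35 had 5 bright probe sets, which ran from -0.39 to -0.30 in PT + HS against PT, so that none reached 1.5-fold. Their unadjusted p in limma over probe sets were 0.0282, 0.0541, 0.0733, 0.0894 (the probe set used) and 0.124. Rps10 had a dim probe set (mean 3.55) at -0.59 in both injured groups against Ctrl, whereas its 5 bright ones ran from -0.14 to 0.02 in PT and from -0.44 to -0.08 in PT + HS.

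The rule left out genes whose every probe set carried several symbols. Of the 81 protein-coding RefSeq genes of the rule, 45 were among the 46 genes, Rps4l being the other. In all 28 were found only in probe sets with several symbols, and of these 26 could be read, among them Rpl3, Rpl5, Rpl13, Rpl23, Rps12 and Rps23, while Rpl32 and Rpl32l share 1 probe set that cannot be assigned to either. For 8 more no probe set was used here. All 26 had a mean between 10.43 and 12.55 in the shared probe sets. Their median was 0.10 in PT against Ctrl, -0.09 in PT + HS against Ctrl and -0.20 in PT + HS against PT, where all 26 were below 0, between -0.37 and -0.05. None reached 1.5-fold in any comparison. PT 3 was the highest of the 9 arrays in 25 of them and PT 2 the lowest in 16. Counted with the shared probe sets, 72 genes could be read, of which 63 were below 0 in PT + HS against Ctrl and none passed the study's thresholds in any comparison. Rpl27a was then read at -0.11.

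**Figure D5:**
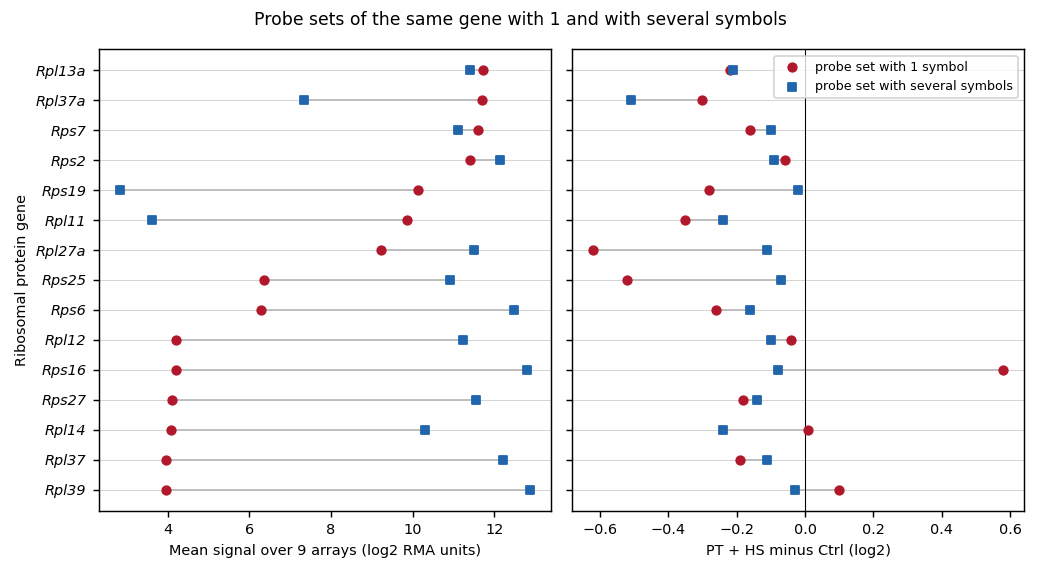
Mean log2 signal (left) and log2 difference PT + HS minus Ctrl (right) of the 15 genes with a probe set of their own (circles) and a probe set that carries further symbols (squares). Rpl27a lies at -0.62 in its own and at -0.11 in the shared, brighter probe set, and Rps16 at 0.58 and -0.08.

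The pathway that controls these messengers was read from lists of its parts. Of 29 measured genes of mTOR signaling and of TOP messenger control, 1 passed the study's thresholds as higher in PT and 2 in PT + HS against Ctrl, none as lower, and none passed between PT + HS and PT. Of all genes 1.41% passed as higher in PT and 1.99% in PT + HS. Against Ctrl, 13 of the 29 were above and 16 below 0 in PT (median -0.05). In PT + HS 15 were above and 14 below 0 (median 0.04). Sesn2, a stress-induced inhibitor of mTOR complex 1, measured 4.65, 4.24 and 4.34 in Ctrl, 5.19, 5.07 and 4.90 in PT and 5.19, 4.81 and 5.10 in PT + HS. All 6 injured mice were above all Ctrl mice. The difference was 0.64 (SE 0.18, unadjusted p = 0.00553) in PT and 0.63 (SE 0.18, unadjusted p = 0.00635) in PT + HS. Ddit4, a further inhibitor of mTOR that hypoxia and glucocorticoids induce, measured 6.66, 6.39 and 6.52 in Ctrl, 7.54, 6.39 and 7.70 in PT and 7.56, 8.57 and 6.80 in PT + HS. PT 2 was at the level of Ctrl. The difference was 1.12 (SE 0.45, unadjusted p = 0.0318) in PT + HS and 0.68 (SE 0.45, unadjusted p = 0.157) in PT. Larp1, which binds the TOP tract, measured 5.78, 5.89 and 5.97 in Ctrl, 6.57, 6.16 and 6.21 in PT and 6.42, 6.62 and 6.35 in PT + HS. Every injured mouse was above every Ctrl mouse. Of all genes, 4.32% had all PT values and 6.55% all PT + HS values above all Ctrl values. The group means of Larp1 differed from Ctrl by 0.43 (SE 0.17, unadjusted p = 0.0295 in limma) in PT and 0.58 (SE 0.17, unadjusted p = 0.00691 in limma) in PT + HS. Neither reached 1.5-fold. No gene of this list had an adjusted p under 0.05 in limma, and Mtor itself differed by -0.02 (SE 0.24) and 0.04 (SE 0.24).

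Among 57 genes of ribosome biogenesis 2 passed as lower in PT against Ctrl, where 2.26% of all genes did. Ubtf, which opens ribosomal DNA for RNA polymerase I, measured 6.29, 6.67 and 7.30 in Ctrl and 5.76, 6.15 and 6.27 in PT, a difference of -0.69 (SE 0.27, unadjusted p = 0.026). All 3 PT mice were below the Ctrl mice, as in 5.12% of all genes. Ltv1, a small-subunit export factor, measured 5.36, 5.33 and 5.34 in Ctrl, 4.79, 3.99 and 5.06 in PT and 4.86, 5.71 and 5.20 in PT + HS, and differed by -0.73 in PT (SE 0.29, unadjusted p = 0.0324). Polr1a, the largest subunit of RNA polymerase I, measured 5.32, 5.06 and 5.02 in Ctrl, 5.74, 5.93 and 5.31 in PT and 4.91, 4.97 and 5.28 in PT + HS. It was lower in PT + HS than in PT by -0.61 (SE 0.20, unadjusted p = 0.0137 in limma). It was the one gene of this list past the thresholds there, where 0.396% of all genes passed as lower. In no comparison did a gene of this list have an adjusted p under 0.05 in limma. None of the 32 translation factors and none of the 76 mitochondrial ribosomal proteins passed the study's thresholds in any comparison. The translation factors had medians of -0.10 in PT and -0.11 in PT + HS against Ctrl, and the mitochondrial ribosomal proteins -0.06 in both. Eef1a1, the elongation factor whose messenger also carries a TOP tract, differed by -0.09 (SE 0.25) and -0.11 (SE 0.25).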

How the data were processed

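RNA of mouse blood was labelled by a one-cycle protocol per the labels and read on arrays whose probe set names are those of a 3′ expression array. The study's methods name another array type. The authors deposited log2 intensity values, summarised by robust multiarray average in Expression Console and BRB-ArrayTools. Tool versions were not given in the sources used here. Of 45101 probe sets, 34958 had 1 gene symbol in the platform annotation, 932 had several and 9211 none, and 34754 received a current symbol through the Entrez identifier. The probe set with the highest mean was used per gene. The named genes, the gene lists and the ribosomal protein genes themselves were chosen with earlier results of these data known.

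Groups were compared with limma 3.58.1 in R 4.3.3 over all 9 arrays and 18194 genes, two-sided, with Benjamini-Hochberg adjustment over all genes. Calls used an adjusted p under 0.05, or the study's thresholds of an unadjusted p under 0.05 and 1.5-fold. Intervals are 95% intervals from the moderated fit. Probe sets were compared in a second fit over all those with 1 symbol. The code was tested on simulated data. Comparisons against Ctrl share the same Ctrl arrays, and 3 mice per group limit the precision. Members with values are those past the thresholds, those with roles listed, those that 1 array decides, the extremes of level and spread, and up to 3 genes with the smallest p of each other list. Genes outside this rule (Rpl6, Rpl8, Rpl12, Rpl14, Rpl37, Rpl37a, Rpl38, Mtor, Eef1a1 and the genes left out by shared probe sets) were named after their values were seen. Tracts and motifs were counted in RefSeq promoter windows. The alternatives tried were the methods' t-test, 2-fold, the arrays compared alone, a variance trend, array weights, equal medians, repeated quantile normalization, filters on level and on probe sets, a gene's probe sets averaged, the replicate block, leaving out each array, and, chosen after seeing the data, inclusion of shared probe sets.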

Additional observations from a re-analysis of the deposited data

How the results depend on the processing

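In PT against Ctrl, where no gene passed the study's thresholds, 1 passed with array weights (Rps27l, 0.69, where 9.16% of all genes passed) and 1 with probe sets that have no a, s or x in the name ending (Rps10, -0.59, where 3.53% of all genes passed), and leaving out one array at a time gave 0 to 3. In PT + HS against Ctrl the 1 gene that passed, Rpl27a, gave way to 0 with the methods' t-test, equal medians, genes with a mean above the median and the replicate block at a difference that stayed at -0.62, with 2-fold, and with a gene's probe sets averaged (-0.30) or shared probe sets included (-0.11). It was joined by Rps10 for a count of 2 with probe sets without those endings, where 3.18% of all genes passed, and leaving out one array at a time gave 0 to 1. In PT + HS against PT the count of 0 became 3 with array weights (Rpl11, Rps25 and Rps6, where 4.82% of all genes passed) and 1 with repeated quantile normalization (Rpl27a, -0.59, where 1.26% passed), and leaving out one array at a time gave 0 to 7. The replicate numbers are not stated to pair the mice. Same-numbered arrays correlated between -0.115 and 0.478 in their deviations, and 4 of 9 correlated best with their own number. So few arrays cannot show whether the mice were paired. With the replicate block the counts were 0 in all 3 comparisons. Over all alternatives the median difference ran from -0.15 to 0.19 in PT against Ctrl, from -0.22 to -0.049 in PT + HS against Ctrl and from -0.34 to -0.0032 in PT + HS against PT. The array weights were 4.96, 0.227 and 0.521 for PT 1 to 3, and PT 2 correlated with the others at 0.9 to 0.944. Why counts moved with these settings was not tested. The number of arrays limits what can be called, and dim probe sets cannot show whether a messenger is absent.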
